A study of Mus musculus with 12 samples.

Results

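The hypoxia response genes examined here were Hif1a, Epas1, Vegfa, Slc2a1, Pdk1, Ldha, Bnip3, Egln1, Egln3 and Car9, 10 of the 21938 protein-coding genes of the mouse annotation on the standard chromosomes. Their chromatin was described by the regions of H3K27ac and H3K27me3 that overlapped the gene body or 50 kb on either side of it, which are called the window of the gene. The windows held 32 of the 31617 H3K27ac regions and 24 of the 28047 H3K27me3 regions, and no region fell in the windows of more than 1 of these genes. The marks were profiled in mouse mesenchymal stem cells (MSCs), stromal cells that can form bone, cartilage and fat. The assay was CUT&RUN, in which an antibody tethers a nuclease to a histone mark and the DNA released around it is sequenced. Young cells came from mice aged 3 to 5 months and old cells from mice aged 18 to 22 months, and each mark had 3 libraries per age. All cells, young and old, were cultured only at 2% oxygen in αMEM with 10% serum, so no library came from cells at a higher oxygen level. The labels name no strain, sex or genetic change, and they do not say whether replicates were separate animals, so the tests measure the spread between these libraries, which may be technical.

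Cells sense oxygen through the prolyl hydroxylases of the Egln family, which mark the alpha subunits of hypoxia-inducible factor (HIF) for destruction while oxygen is present. When oxygen is scarce the alpha subunits, Hif1a and Epas1, persist, pair with Arnt and bind a short core motif at target genes for glucose uptake, glycolysis, blood vessel growth, mitochondrial turnover and acid balance. H3K27ac marks active promoters and enhancers, whereas H3K27me3 is laid down by Polycomb proteins over silent or poised genes, and the same lysine cannot carry both. Bone MSCs live in a tissue of low oxygen, and they are often grown at low oxygen in culture.

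The core of the HIF binding motif was searched in the 250 bases upstream of the RefSeq start sites on GRCm38.p6, as ACGTG and GCGTG and, for the other strand, CACGT and CACGC. A palindromic CACGTG counts for both strands. The promoter table matched 9 of the 10 genes through 12 start sites, and Epas1 had no entry. All 9 matched genes held at least 1 copy upstream of 1 of their start sites, in 10 of 12 promoters (83.3%), and 38.6% of the 32851 promoters in the table held 1. The 12 promoters were richer in G and C than the table, with a median of 61.8% against 52.4%, and the part of this in the motif count was not tested. A match is a description of the letters and not a binding site. The promoters of 5 genes are shown because they stand for the patterns described further on: Slc2a1 and Pdk1 had the highest and the lowest mean H3K27ac level, although Pdk1 and Epas1 could not be ranked, Hif1a had the smallest p-value of all H3K27ac regions of these genes, Egln3 was the gene whose old promoter values all lay below the young ones, and Bnip3 held the motif in 4 separate places. Capitals mark the core motif, each sequence runs 5′ to 3′ on the strand of its gene, and it ends just before the start site.
Slc2a1, chr4:119108495-119108744, plus strand: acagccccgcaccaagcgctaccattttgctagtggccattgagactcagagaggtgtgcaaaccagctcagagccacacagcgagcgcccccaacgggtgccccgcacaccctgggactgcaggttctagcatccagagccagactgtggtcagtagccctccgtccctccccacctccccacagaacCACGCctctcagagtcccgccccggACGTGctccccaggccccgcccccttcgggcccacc
Pdk1, chr2:71872974-71873223, plus strand: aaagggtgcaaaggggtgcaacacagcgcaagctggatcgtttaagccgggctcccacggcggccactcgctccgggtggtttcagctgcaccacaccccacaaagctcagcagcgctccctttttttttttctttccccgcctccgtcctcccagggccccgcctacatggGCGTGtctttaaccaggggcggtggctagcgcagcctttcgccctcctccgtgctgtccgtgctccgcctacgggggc
Hif1a, chr12:73907617-73907866, plus strand: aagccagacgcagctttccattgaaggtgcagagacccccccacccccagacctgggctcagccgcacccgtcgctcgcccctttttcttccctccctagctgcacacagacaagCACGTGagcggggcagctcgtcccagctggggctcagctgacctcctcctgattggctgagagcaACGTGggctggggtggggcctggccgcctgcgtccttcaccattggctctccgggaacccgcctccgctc
Egln3, chr12:54203875-54204124, minus strand: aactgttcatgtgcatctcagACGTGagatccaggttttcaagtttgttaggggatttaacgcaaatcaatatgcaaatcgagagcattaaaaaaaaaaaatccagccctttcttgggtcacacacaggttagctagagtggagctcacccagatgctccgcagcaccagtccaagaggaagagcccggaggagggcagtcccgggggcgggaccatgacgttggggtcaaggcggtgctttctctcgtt
Bnip3, chr7:138909507-138909756, minus strand: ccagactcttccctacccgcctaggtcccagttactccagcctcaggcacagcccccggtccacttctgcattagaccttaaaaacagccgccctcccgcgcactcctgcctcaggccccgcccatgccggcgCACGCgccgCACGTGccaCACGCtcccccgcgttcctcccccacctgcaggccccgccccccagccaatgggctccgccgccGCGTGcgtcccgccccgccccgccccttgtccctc
In Slc2a1 the nearest motif began 36 bases before the start, and in Egln3 the only motif began 229 bases before it. All 5 promoters lay inside an H3K27ac region of their gene.

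The libraries held 2750953 to 5541429 reads for H3K27ac and 3622108 to 9947515 reads for H3K27me3, and old replicate 2 was the shallowest in both marks. Regions of these genes held a mean of 7.83 to 456 H3K27ac reads and 14.3 to 1106 H3K27me3 reads per library. The share of reads inside regions was 33.4% to 39.2% in old and 33.7% to 41.4% in young H3K27ac libraries. In H3K27me3 it was 53.8% to 60.8% in old and 62.3% to 66.6% in young libraries, with no overlap. All 9 MSC and stromal markers checked (Pdgfra, Ly6a, Prrx1, Thy1, Eng, Nt5e, Col1a1, Lepr and Cxcl12) had an H3K27ac region at a start site. Of 6 blood and endothelial markers only Pecam1 had one, and Ptprc and Cd79a had neither mark there.

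All 10 genes had an H3K27ac region within 1 kb of a start site, which holds for 53.6% of protein-coding genes, and only Epas1 had an H3K27me3 region there, which holds for 34.0%. Of the genes, 6 were covered by H3K27ac over 100% of the gene body, namely Hif1a, Vegfa, Slc2a1, Pdk1, Ldha and Bnip3. In the annotation as a whole 16.2% of protein-coding genes were covered that fully. Car9 was covered over 92.1%, Egln1 over 80.4% and Egln3 over 69.8%. H3K27me3 covered 0% of the body of 9 genes, a state shared by 64.0% of protein-coding genes, and 93.1% of the body of Epas1.

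**Figure D1:**
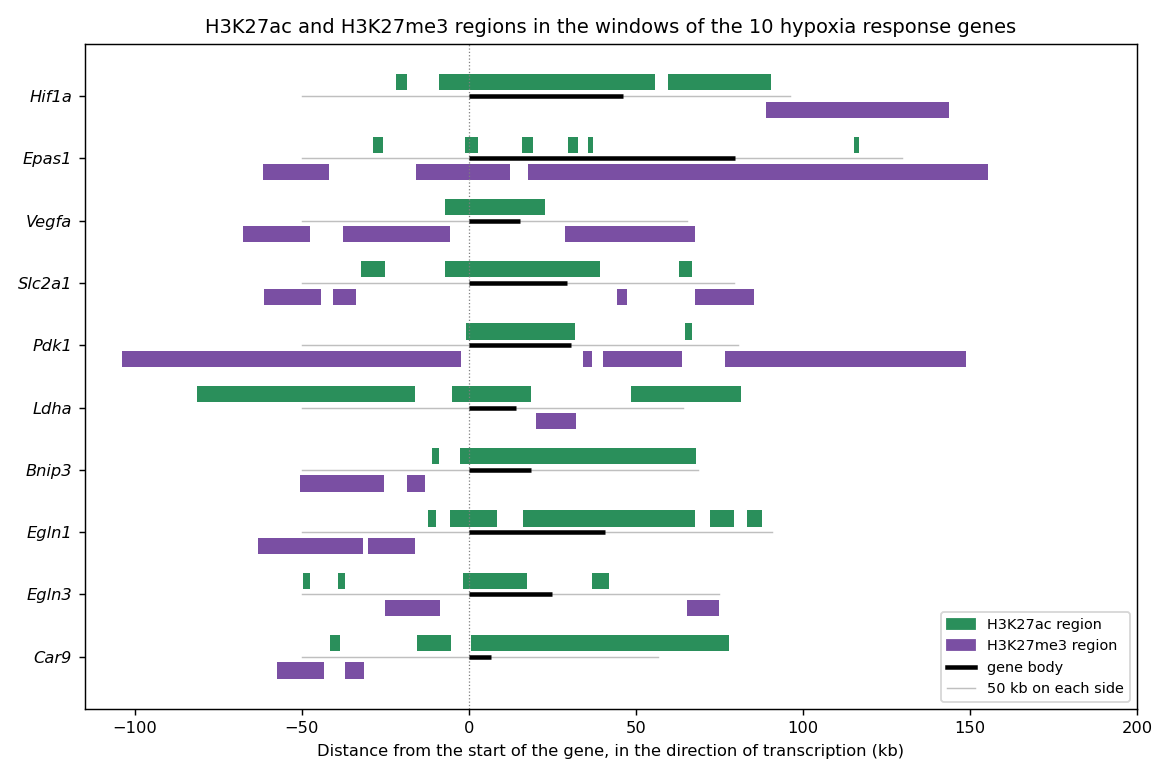
Position of every H3K27ac region (green) and H3K27me3 region (purple) in the windows of the 10 genes, as distance in kb from the annotated start of the gene in the direction of transcription; black lines are gene bodies and grey lines the window. Green covers the whole body of 6 genes, most of the bodies of Egln1, Egln3 and Car9, and 13.6% of that of Epas1, of which 93.1% lies under purple; the start of Car9 lies just outside its green region.

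Outside the gene bodies the marks alternated along the windows, and 10 of the 32 H3K27ac regions and 6 of the 24 H3K27me3 regions covered the start site of another protein-coding gene. H3K27me3 covered 61.4% of the Vegfa window and 59.4% of the Pdk1 window, and 4.81% of the Hif1a window. Vegfa, the main growth factor for blood vessels, lay in a 30.0-kb island of H3K27ac between H3K27me3 regions that began 5.63 kb upstream and 28.9 kb downstream of its start. Pdk1 encodes a kinase that holds pyruvate back from oxidation in the mitochondria. A 101.5-kb H3K27me3 region reached to 2.22 kb upstream of the Pdk1 start and ran over Itga6. Overlap of both marks was limited to 11.5 kb in the Epas1 window and 1.5 kb each in the windows of Hif1a and Vegfa, and it was 0 kb in the other 7.

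**Figure D2:**
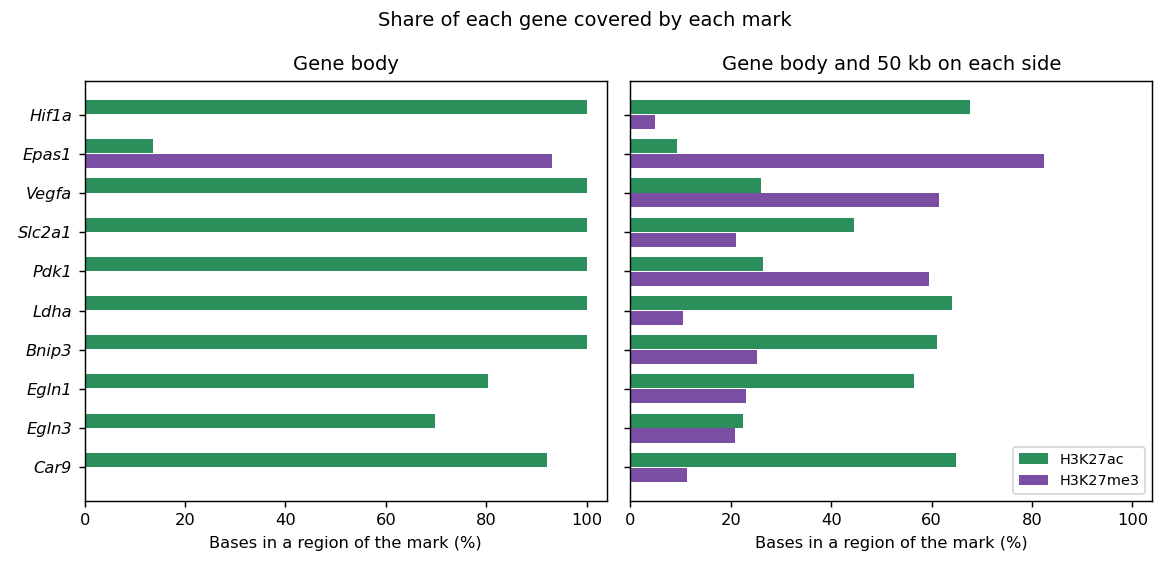
Share of bases in % that lay in an H3K27ac region (green) or an H3K27me3 region (purple), for the gene body (left) and for the gene body with 50 kb on each side (right). Epas1 is the only gene with H3K27me3 in its body, at 93.1%, while the windows of Vegfa, at 61.4%, and Pdk1, at 59.4%, hold H3K27me3 in their flanks.

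The genes of the HIF alpha subunits carried the marks in different ways. Hif1a, on chr12, lay under a single H3K27ac region of 64.5 kb (chr12:73892501-73957000) that held its start sites, exons, untranslated parts and introns and also the start of Gm49321. Levels of single genes are given per length, as scaled RPKM (reads per kb of region per 1000000 library reads, scaled between libraries), and sums as scaled RPM, the same without the length. Scaled H3K27ac over the Hif1a region was 1.54, 1.13 and 1.17 RPKM in young replicates 1 to 3 and 1.20, 1.09 and 1.02 in the old ones. Young replicate 1 was the highest library and the other 5 lay close together, so that the groups overlapped. The log2 fold change of old against young was -0.20 (SE 0.10, 95% interval -0.40 to -0.01, limma adjusted p = 0.499). Without young replicate 1 it was -0.07. In bulk libraries such as these, a mark on fewer cells and less of the mark per cell cannot be told apart. The only H3K27me3 region in reach of Hif1a began 89.1 kb downstream of the start and ran over Syt16.

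Epas1, which encodes the HIF alpha subunit prominent in endothelial cells, had a much shorter H3K27ac region of 4.0 kb at its start (chr17:86752501-86756500), inside an H3K27me3 region of 28.0 kb (chr17:86738001-86766000). Both marks, at the same or at different start sites of the gene, were found in 9.02% of protein-coding genes. Its introns held 3 small H3K27ac regions of 1.5 to 3.5 kb, and a second H3K27me3 region of 137.5 kb (chr17:86771501-86909000) took up most of the rest of the gene. Reads in the 4.0-kb region numbered 23, 18 and 19 in young and 25, 9 and 11 in old libraries, which gave 0.939, 1.30 and 0.781 scaled RPKM in young and 1.25, 0.885 and 0.701 in old ones. Neither group stood apart, with a log2 fold change of -0.09 (95% interval -0.69 to 0.50, limma adjusted p = 0.951). H3K27me3 over the start was 0.889, 1.09 and 1.24 scaled RPKM in young and 1.01, 1.17 and 0.894 in old libraries. Here too the ages overlapped, with young replicate 1 and old replicate 3 the lowest, and the log2 fold change was -0.06 (95% interval -0.33 to 0.20, limma adjusted p = 0.870). The 137.5-kb region held 1.06 ± 0.0327 scaled RPKM in young and 0.997 ± 0.0977 in old libraries (SD, n = 3), and old replicate 3 was again the lowest.

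The oxygen sensors carried H3K27ac at their starts and none of the other mark in their bodies. Egln1, the hydroxylase that sets HIF stability in most cells, had a 14.0-kb region at its start (chr8:124941001-124955000) and a 51.5-kb region over its distal part that also held the starts of neighbouring genes. Scaled H3K27ac at the Egln1 start was 1.17, 1.30 and 1.07 RPKM in young and 1.30, 1.07 and 1.27 in old libraries, spread alike in both ages. The log2 fold change was 0.04 (95% interval -0.27 to 0.35, limma adjusted p = 0.961). Egln3, a hydroxylase that is itself induced by HIF, had a 19.0-kb region at its start (chr12:54186501-54205500). There the values were 1.42, 1.32 and 1.35 scaled RPKM in young and 1.27, 1.10 and 1.22 in old libraries. Every old library lay below every young one, yet the log2 fold change of -0.19 (SE 0.13, 95% interval -0.45 to 0.07) did not pass the test (limma adjusted p = 0.677). H3K27me3 lay in the flanks of both genes and began 16.2 kb upstream of Egln1 and 8.64 kb upstream of Egln3.

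Among the HIF targets, the genes of glucose use had both the highest and the lowest mean H3K27ac level. Slc2a1, the glucose transporter GLUT1, had a 46.5-kb region (chr4:119101501-119148000) with 1.70, 1.72 and 1.57 scaled RPKM in young and 1.72, 1.67 and 1.65 in old libraries. It ranked at percentile 92.2 among the promoter regions of all protein-coding genes. The ages overlapped and the log2 fold change was 0.02 (95% interval -0.15 to 0.18, limma adjusted p = 0.967). Ldha, which turns pyruvate into lactate, had a 23.5-kb region (chr7:46836501-46860000) with 1.36, 1.23 and 1.42 scaled RPKM in young and 1.46, 1.32 and 1.55 in old libraries. The old values were higher on average but overlapped the young ones, with a log2 fold change of 0.11 (95% interval -0.12 to 0.34, limma adjusted p = 0.809). Pdk1 had the lowest mean. Its 32.5-kb region (chr2:71872501-71905000) held 0.854, 0.755 and 0.749 scaled RPKM in young and 0.693, 0.932 and 0.784 in old libraries, at percentile 2.25 of all promoter regions. The old libraries included both the lowest and the highest Pdk1 value, and the log2 fold change was 0.02 (95% interval -0.24 to 0.29, limma adjusted p = 0.977).

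Vegfa, Bnip3 and Car9 represent vessel growth, mitochondrial turnover and acid balance. Over the Vegfa region (chr17:46009501-46039500) scaled H3K27ac was 1.24, 1.08 and 1.06 RPKM in young and 1.24, 1.26 and 1.39 in old libraries. No old library lay below a young one, although old replicate 1 and young replicate 1 were nearly equal. The log2 fold change was 0.20 (SE 0.11, 95% interval -0.02 to 0.43, limma adjusted p = 0.566). Bnip3, a mitochondrial receptor for autophagy, lay in a 70.5-kb region (chr7:138841501-138912000) that also held the starts of Mapk1ip1 and Ppp2r2d. It held 1.55, 1.43 and 1.39 scaled RPKM in young and 1.34, 1.42 and 1.41 in old libraries, which overlapped, with a log2 fold change of -0.07 (95% interval -0.22 to 0.08, limma adjusted p = 0.834).

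Car9, the membrane carbonic anhydrase that is a standard marker of HIF activity, needs a separate reading. Its 77.5-kb H3K27ac region (chr4:43507501-43585000) began 0.535 kb downstream of its start and took in the starts of Creb3, Gba2, Msmp, Rgp1, Tln1 and Tpm2, so signal there cannot be assigned to Car9 alone. The region held 1.19, 1.11 and 1.14 scaled RPKM in young and 1.24, 1.35 and 1.22 in old libraries. All old libraries lay above all young ones, with a log2 fold change of 0.15 (SE 0.08, 95% interval -0.01 to 0.30, limma adjusted p = 0.554). An H3K27me3 region of 14.0 kb (chr4:43449501-43463500), 43.5 kb upstream of Car9 and over the start of Cd72, showed the same order: 16.8, 16.6 and 15.3 scaled RPM in young and 19.5, 22.8 and 17.1 in old libraries. Its log2 fold change of 0.27 had the smallest p-value of the 24 H3K27me3 regions and did not pass the test (95% interval 0.0036 to 0.55, limma adjusted p = 0.353).

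**Figure D3:**
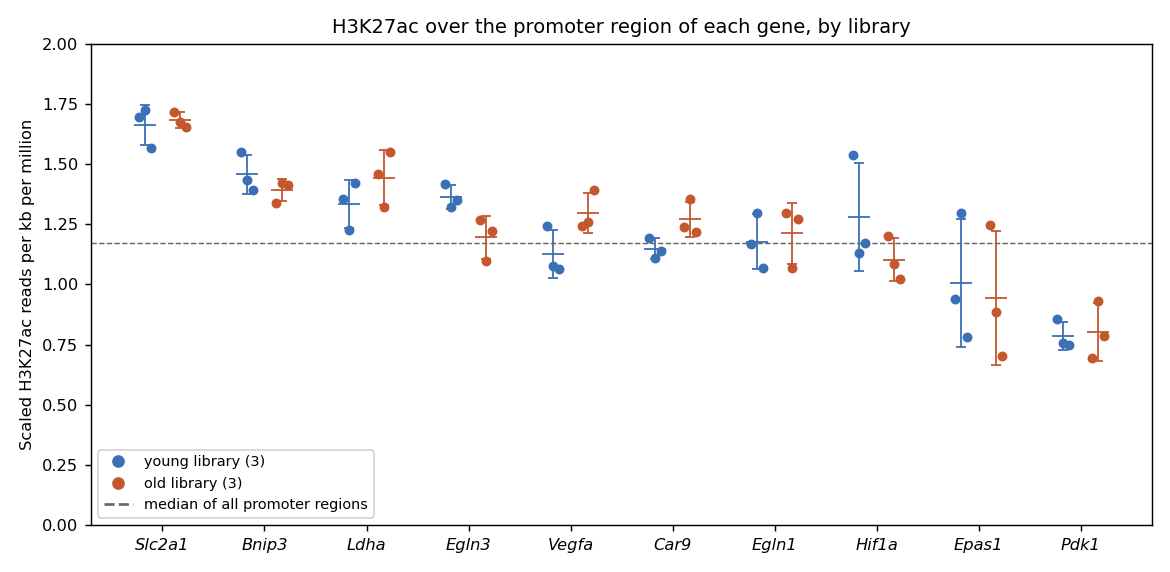
Scaled H3K27ac in RPKM over the promoter region of each gene, ordered by the mean of the 6 libraries; points are libraries, blue young and orange old, with the mean and SD of 3, and the dashed line is the median of all promoter regions at 1.17. Slc2a1 has the highest mean and Pdk1 the lowest, Pdk1 and Epas1 overlap, and the ages separate only for Egln3, Vegfa and Car9.

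Ordered by the mean over all 6 libraries, the H3K27ac level of the promoter regions ran from Slc2a1 at 1.67 through Bnip3 at 1.42, Ldha at 1.39, Egln3 at 1.28, Vegfa at 1.21, Car9 at 1.21, Egln1 at 1.20 and Hif1a at 1.19 to Epas1 at 0.975 and Pdk1 at 0.794 scaled RPKM. The median of all promoter regions was 1.17. These levels and percentiles are means over whole regions, from 4.0 kb for Epas1 to 77.5 kb for Car9. They do not give the height of the mark at the start site, and region length was not accounted for. Slc2a1 lay above Bnip3 in 6 of 6 libraries, by 0.248 ± 0.0835 (SD). Every other pair of neighbours in this order changed places in at least 2 libraries, with a mean difference smaller than its SD. Apart from Slc2a1 at the top, the order of neighbours was therefore not resolved. Genes further apart could differ in every library: the highest Pdk1 value, 0.932, lay below every value of Hif1a (lowest 1.02) and of the genes above Hif1a. Epas1 lay above Pdk1 in 4 of 6 libraries, so the lowest place was not resolved either.

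Old and young were then compared over all regions of the windows. Of the 32 H3K27ac regions 0 were called by limma at an adjusted p under 0.05, where 0.0822% of all H3K27ac regions were called. Of the 24 H3K27me3 regions 0 were called, where 0.488% of all were. Before adjustment 1 region of each mark had a p under 0.05, namely the 64.5-kb Hif1a region for H3K27ac and the region 43.5 kb upstream of Car9 for H3K27me3. Such a p was found in 9.60% of all H3K27ac and 13.9% of all H3K27me3 regions, so neither count was above the background. With edgeR and DESeq2 on the recovered reads 0 regions of either mark were called, although DESeq2 gave an adjusted p for only 10 of the 32 and 14 of the 24. Of the H3K27ac regions 18 were higher and 14 lower in old libraries, with a median log2 fold change of 0.02, and all H3K27ac regions had a median of -0.0028. For H3K27me3 12 were higher and 12 lower, with a median of -0.01, and all regions had a median of -0.0077.

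The ages separated completely in 6 of these regions. Of the 32 H3K27ac regions 4 (12.5%) had all old libraries on one side of all young ones, against 14.5% of all H3K27ac regions, and 2 of the 24 H3K27me3 regions (8.33%), against 19.1% of all. Besides the promoter regions of Vegfa, Car9 and Egln3, the remaining H3K27ac region lay 16.0 kb upstream of Ldha, over Gtf2h1 and Hps5, with 47.5, 56.0 and 49.7 scaled RPM in young and 57.0, 57.0 and 56.8 in old libraries. Its old libraries were nearly level and just above young replicate 2, with a log2 fold change of 0.16 (95% interval -0.03 to 0.35, limma adjusted p = 0.616). The other H3K27me3 region lay 20.0 kb downstream of the Ldha start, over Ldhc, the testis form of the enzyme. It held 8.49, 8.15 and 7.98 scaled RPM in young and 10.2, 8.82 and 11.1 in old libraries, all old above all young, with a log2 fold change of 0.27 (95% interval -0.05 to 0.60, limma adjusted p = 0.445).

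**Figure D4:**
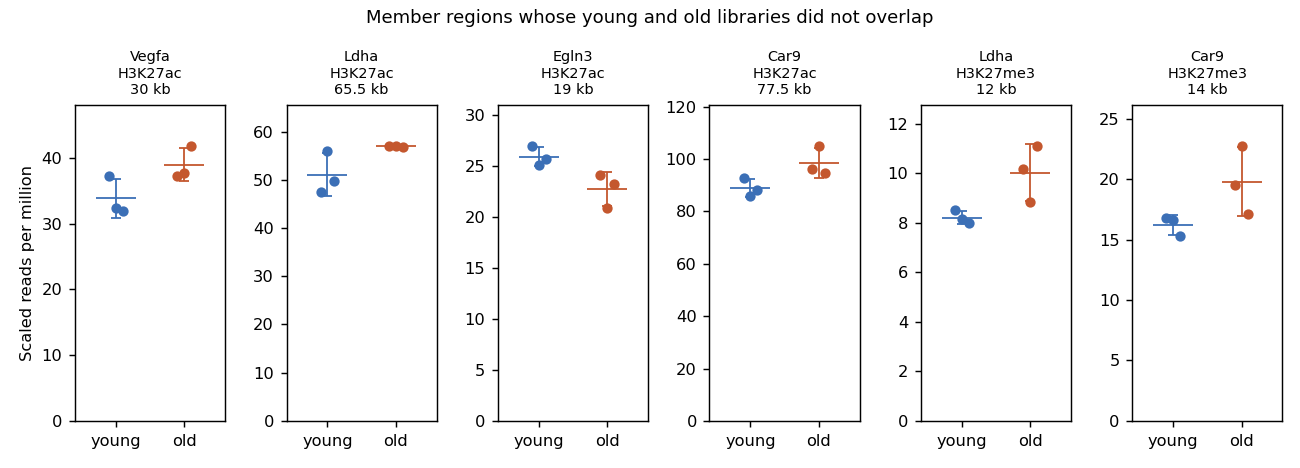
Scaled RPM in the 6 regions whose young (blue) and old (orange) libraries did not overlap, with gene, mark and region length above each panel; points are libraries and bars the mean and SD of 3. Old libraries lie above young ones in 5 regions and below them in the Egln3 region, and none of the 6 passed the test.

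Summed over a whole window, the marks gave 1 value per gene and library. Each region that overlapped a window was added whole, with any part beyond the 50 kb. The H3K27ac window of Vegfa and the H3K27me3 windows of Ldha and Hif1a held 1 region each and repeat its values. That of Hif1a was the 54.5-kb region over Syt16, most of which lay beyond the window. For H3K27ac 0 of 10 windows were called, against 0.684% of the windows of all protein-coding genes with a region, and 3 of 10 had ages that did not overlap, against 16.6% of all. These were Vegfa, Ldha and Car9, all with old above young. Of the 2867 such windows of all genes, 2004 had old above young and 863 old below. In the Ldha window the sums were 116, 119 and 116 scaled RPM in young and 131, 123 and 126 in old libraries, a log2 fold change of 0.11 (95% interval -0.03 to 0.25, limma adjusted p = 0.557). In the Hif1a window they were 134, 105 and 111 in young and 107, 97.9 and 102 in old libraries, where young replicate 1 again stood highest. The Hif1a log2 fold change of -0.18 (95% interval -0.34 to -0.03) had the smallest adjusted p of the 10 H3K27ac windows (limma, 0.316), and it was -0.08 without young replicate 1. The log2 fold changes of the other 9 windows ran from -0.14 for Egln3 to 0.20 for Vegfa.

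For H3K27me3 0 of 10 windows were called, against 0.436% of all, and the ages did not overlap in 2 of 10, against 19.5% of all. These were Car9 and Ldha, with old above young. Of the 3410 such windows of all genes, 1139 had old above young and 2271 old below. The Car9 window held 19.5, 20.3 and 18.2 scaled RPM in young and 23.1, 25.6 and 20.8 in old libraries, a log2 fold change of 0.26 (95% interval 0.01 to 0.50, limma adjusted p = 0.321). The largest H3K27me3 sums were those of Pdk1 and Epas1, and in both the ages overlapped widely. Of the young mean of 235 scaled RPM for Pdk1, 110 came from a 72.0-kb region over Rapgef4, most of it beyond the window. Epas1 held 189, 193 and 208 scaled RPM in young and 191, 199 and 165 in old libraries. In Epas1, as in Hif1a, Vegfa and Pdk1, old replicate 3 was the lowest library, and without it the Epas1 log2 fold change of -0.09 (95% interval -0.26 to 0.09, limma adjusted p = 0.651) was -0.0042 and that of Hif1a went from -0.15 to -0.06.

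**Figure D5:**
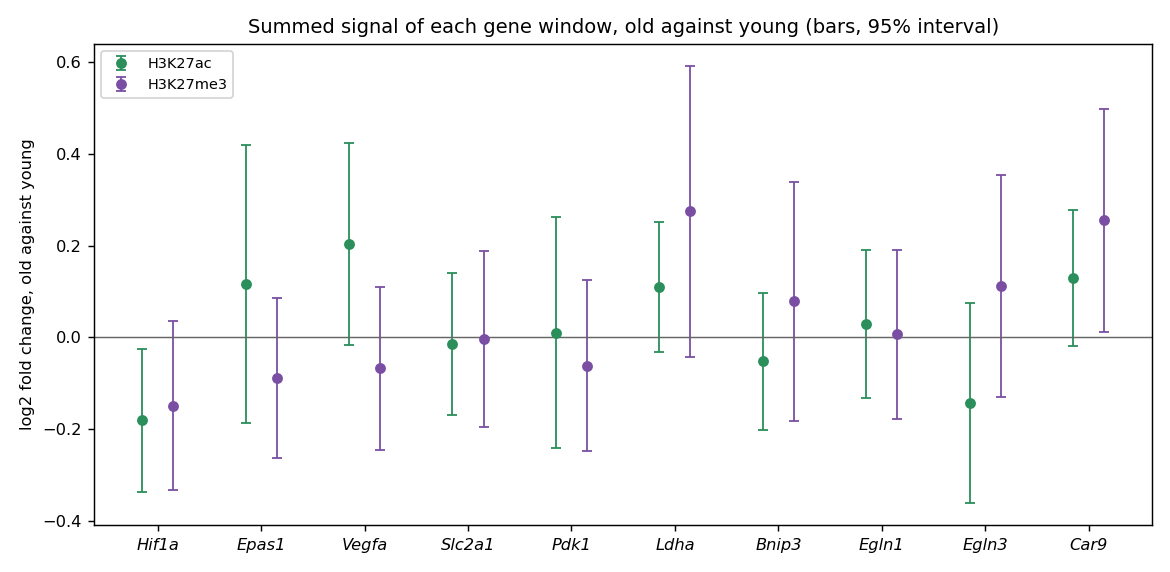
log2 fold change of old against young for the summed H3K27ac (green) and H3K27me3 (purple) signal of each gene window, with 95% intervals from limma. The values lie between -0.18 and 0.27, the intervals of Hif1a for H3K27ac and Car9 for H3K27me3 do not reach 0, and no window passed the test after adjustment.

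Over the windows of the 10 genes together, the signal as deposited was 1744, 1312 and 1557 units in young and 1341, 1383 and 1533 in old H3K27ac libraries. The ages overlapped, with 1538 ± 217 in young and 1419 ± 101 in old libraries (SD, n = 3; exact two-sided permutation p = 0.6, where 3 against 3 cannot go below 0.1). Summed H3K27me3 was 1518, 1665 and 1758 units in young and 1549, 1573 and 1282 in old libraries, with 1647 ± 121 against 1468 ± 161 (SD, n = 3; exact two-sided permutation p = 0.3). The old means differed from the young ones by -7.73% and -10.9%, and over all regions of the tables by -6.80% and -11.0%. The deposited signal is reads per library reads over a constant length, so its sum over all regions follows the share of reads inside regions, given above. The differences over all regions are therefore differences in that share, which was lower on average in old libraries in both marks. The part of that share in the differences over the windows of the 10 genes was not tested. On the scaled signal the differences over the windows of the 10 genes were 0.67% for H3K27ac and -3.07% for H3K27me3 (exact two-sided permutation p = 0.9 and 0.7). Over all regions they were 1.40% and -3.10%. Scaling moved the median log2 fold change of all windows by 0.12 in both marks, and fold changes elsewhere in the text are on the scaled values. On the signal as deposited 8 of the 10 windows were lower in old libraries in each mark, where on the scaled signal 4 were lower for H3K27ac and 5 for H3K27me3. Of the windows of all genes, 74.8% for H3K27ac and 84.8% for H3K27me3 were lower on the signal as deposited.

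The rest of the hypoxia pathway was followed in a list of 60 further genes for oxygen sensing, glycolysis, mitochondria, secreted factors, collagen processing and other HIF targets. An H3K27ac region lay at a start site of 53 of the 60, and 0 of these regions were called by limma, with 19 higher and 34 lower in old libraries, a median log2 fold change of -0.02 and 6 with a p under 0.05 before adjustment. Of all H3K27ac regions 0.0822% were called and 9.60% had such a p. H3K27me3 lay at a start site of 14 of the 60, and 0 were called, with 5 higher and 9 lower, a median of -0.07 and 1 with such a p, where 0.488% of all H3K27me3 regions were called and 13.9% had such a p. Car12, Flt1, Hif3a, Igfbp3, Kdr, Loxl2 and Slc2a3 had no H3K27ac region at a start site. Among them Car12, Flt1, Hif3a, Igfbp3, Kdr and Slc2a3 had H3K27me3 there. Angpt1, Edn1, Epo, Hk1, Ndrg1, Pfkfb3, Slc16a3 and Vldlr had both marks, at the same or at different start sites, and Epas1 was thus not alone. By edgeR and DESeq2 0 of these regions were called in either mark, although DESeq2 gave an adjusted p for only 26 of the 53 and 11 of the 14. Of the windows of these genes limma called 0 of 59 for H3K27ac and 0 of 56 for H3K27me3, where 0.684% and 0.436% of all windows were called. Before adjustment 8 and 6 had a p under 0.05, as did 12.1% and 14.4% of all windows. The H3K27ac windows did not lean the way the start regions did. Of them 35 were higher and 24 lower in old libraries, with a median log2 fold change of 0.03. The H3K27ac windows of all protein-coding genes leaned alike, with 60.2% higher and a median of 0.03. Of all H3K27ac regions 49.6% were higher.

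In 6 of the 53 H3K27ac regions the ages did not overlap, where this held for 14.5% of all H3K27ac regions, so the count was not above the background. Pfkfb4, a bifunctional enzyme that raises the activator of phosphofructokinase, had 0.861, 0.962 and 1.13 scaled RPKM in young and 1.32, 1.55 and 1.47 in old libraries. All old libraries were above all young ones by a clear gap, with a log2 fold change of 0.55 (SE 0.14, limma adjusted p = 0.136). Pdk3, a relative of Pdk1 on the X chromosome, had 29, 20 and 38 reads in young and 18, 4 and 12 in old libraries over a 3.5-kb region. Its scaled level was lower in every old library, with a log2 fold change of -1.03 (SE 0.30, limma adjusted p = 0.189). The other genes named by the same rule were Hmox1, the haem oxygenase, at 0.19 (limma adjusted p = 0.539), Lox, which crosslinks collagen, at -0.24 (0.413), and Ndrg1 at -0.71 (0.489), each a log2 fold change with its limma adjusted p. The Ndrg1 value rested on few reads, 17, 14 and 23 in young and 10, 6 and 7 in old libraries over a 2.5-kb region. Among the 14 H3K27me3 regions the ages did not overlap in 1, against 19.1% of all H3K27me3 regions, and this was Pfkfb3, with a log2 fold change of -0.07 (limma adjusted p = 0.845).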

How the data were processed

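Chromatin marks were profiled by CUT&RUN in 12 libraries, 3 young and 3 old for each of H3K27ac and H3K27me3, grouped by the sample labels. The authors deposited a single table per mark, whose rows are called regions and whose values are a signal in each library. Per the submitters' processing notes Bowtie2, Picard and mm10 (GRCm38) were used, and the peak caller is not given in the sources used here. The deposited signal was reads per 1000000 library reads (RPM) divided by a constant 0.5 kb, not by the length of the region: 100% of values were whole reads within 1e-06, from which reads and library sizes were recovered. The state old, young or both that the region names carry was not used. Columns of library values not used here numbered 0, and the yeast DNA of the protocol was not analysed here.

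Gene bodies and start sites came from GENCODE vM21 (GRCm38) and promoter sequences from RefSeq (GRCm38.p6). A promoter region overlapped 1 kb on either side of a start site. Of several, the one with the highest mean signal was taken. Levels are scaled RPM divided by the region's length in kb (RPKM), computed here.

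Each mark was fitted apart. The signal was scaled by the median of ratios (RLE), 0.5 was added, and log2 values of all regions, or of the summed windows of all protein-coding genes, were tested with limma 3.58.1 (R 4.3.3; trend and robust moderation, two-sided, no filter, no block), with Benjamini-Hochberg adjustment over the whole table. Fold changes are on the log2(signal + 0.5) scale, which understates changes of low regions, and windows of neighbouring genes share regions. Intervals use the moderated SE and its degrees of freedom. Summed signals were compared by exact permutation of the libraries. On the recovered reads, edgeR 4.0.16 called 96 of all H3K27ac and 394 of all H3K27me3 regions, and DESeq2 1.42.0 was run as well. The fits were tested on simulated data. Other scalings, pseudocounts, filters, windows and omitted libraries were tried.

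The genes, the lists and the tests were chosen with earlier results of these data known. Beyond the 10 genes, regions were named when called or when their ages did not overlap, up to 3 per mark and direction with the smallest p, among the 10 genes and among the other pathway genes. The publication supplied with the series does not describe these libraries and served for style only.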

Additional observations from a re-analysis of the deposited data

How the results depend on the processing

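The count of 0 called regions and 0 called windows among the 10 genes held in both marks under every alternative run. For regions these were the signal as deposited, pseudocounts of 0.1 and 2, a minimum mean of 10 reads, limma without trend and robust moderation, edgeR with RLE or TMM, DESeq2, a window of 10 kb, regions covering no other start site, the replicate block and leaving out each library in turn. For windows they were the signal as deposited, a pseudocount of 2, a window of 10 kb, the block and leaving out each library. Within 10 kb 5 of the genes had an H3K27me3 region, and the other 5 gave no window value. The smallest adjusted p was 0.112, for the Hif1a H3K27me3 window on the signal as deposited. The only region of that window ran over Syt16 and lay mostly beyond the 50 kb. Calls over the whole tables ranged from 0 to 105 H3K27ac regions (26 as reported) and from 10 to 774 H3K27me3 regions (137), and from 22 to 275 H3K27ac windows (118) and 23 to 623 H3K27me3 windows (76). Replicate numbers were not taken as a pairing (correlations of same-numbered deviations -0.0778 to 0.0656, and not every library matched its own number best), and with the replicate block 0 regions and 0 windows of these genes were called, against 81 H3K27ac and 309 H3K27me3 regions in all. The summed H3K27ac difference of -119 units was 9.89 on the scaled signal, and ranged from -232 to -15.7 without 1 library, and that of H3K27me3 from -243 to -86.2.

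Of 360 alternative fold changes for 31 promoter regions and windows, 316 kept their sign and 44 turned, in 17 results of at most 0.12 in size on the log2 scale. On the signal as deposited the H3K27ac promoter values became -0.10 for Slc2a1, -0.0065 for Ldha, -0.078 for Egln1 and -0.096 for Pdk1, and the windows -0.0018 for Epas1, -0.11 for Pdk1, -0.0094 for Ldha and -0.090 for Egln1. The H3K27me3 windows became -0.044 for Bnip3, -0.12 for Egln1 and -0.0092 for Egln3. With edgeR (RLE, TMM) the H3K27ac promoter of Epas1 was 0.017 and 0.0098 and that of Pdk1 -0.013 and -0.020, and in a 10-kb window Slc2a1 was 0.018. The signal as deposited differs from the main fit only in the scaling, which moved the median log2 fold change of all windows by 0.12 in both marks. Why signs turned with edgeR or in the 10-kb window was not tested. Without 1 library, the promoter ranges that crossed 0 were -0.024 to 0.044 for Slc2a1, -0.027 to 0.13 for Egln1, -0.30 to 0.094 for Epas1, -0.089 to 0.12 for Pdk1 and -0.19 to 0.045 for Epas1 H3K27me3. The H3K27ac windows that did so were Epas1 (-0.0019 to 0.25), Slc2a1 (-0.057 to 0.0070), Pdk1 (-0.11 to 0.13) and Egln1 (-0.034 to 0.089), and the H3K27me3 windows were Vegfa (-0.10 to 0.0060), Slc2a1 (-0.070 to 0.059), Pdk1 (-0.14 to 0.037), Bnip3 (-0.053 to 0.19) and Egln1 (-0.047 to 0.075). Depth limited the short regions: 11 of the 32 H3K27ac regions and 2 of the 24 H3K27me3 regions had under 10 reads in some library.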
